A study of Mus musculus with 6 samples.

Results

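Lysosome and autophagy genes were followed in whole hearts of 3 DNMTs-Tg and 3 wild-type mice, all 8 weeks old. The set holds 44 genes in 9 roles. The lysosomal roles are cathepsins, other acid hydrolases, luminal cofactors with cholesterol transfer proteins, and lysosomal membrane proteins. Next are the transcription factors Tfeb and Tfe3. The rest are the proteins that start autophagy, conjugate its tags, form the tags themselves or act as cargo receptors. Members were the probe sets whose platform annotation gave a single symbol, that of a set gene. This found 101 of 45101 probe sets, for 42 of the 44 genes. Bnip3l, whose 3 probe sets also carry the name of its pseudogene, and Cd63 were not analysed here. Dim probe sets were dropped unless 3 or more of the 6 arrays exceeded that array's own 40th percentile. This kept 85 of the 101 and left 41 genes among 13634 genes tested. Gla, the alpha-galactosidase missing in Fabry disease, was dropped. Its brightest probe set had log2 signals of 5.01, 3.94 and 3.94 in DNMTs-Tg replicates 1, 5 and 6 and 4.16, 4.12 and 4.31 in wild-type replicates 1, 4 and 6, and lay above the 40th percentile on 1 array.

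Lysosomes are acidic organelles that digest proteins, glycans and lipids delivered by endocytosis or by autophagy, in which a double membrane tagged with proteins of the Atg8 family closes around cargo and fuses with a lysosome. The transcription factors TFEB and TFE3 drive many of these genes together through short E-box elements in their promoters, and nutrient signals at the lysosome keep both factors out of the nucleus. Cardiac muscle depends on this clearance, and loss of LAMP2 or of the acid alpha-glucosidase GAA causes cardiomyopathy.

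DNMTs-Tg mice express DNMT3A2, an isoform of DNMT3A that methylates new DNA sites, and its catalytically inactive partner DNMT3L in somatic cells broadly. They grow slowly and die early, and the study searched their hearts for genes silenced by added methylation. Per the labels' protocols they came from FVB females with the germline-active Ddx4-cre and males with a floxed allele. The background strain of the wild-type mice is not given in the labels. The labels name 1 mouse per array and no shared litter. The values are log2 signals, with array medians of 5.28 to 5.33. Dnmt3l separated the genotypes on every array, with 12.30, 12.38 and 12.19 in DNMTs-Tg replicates 1, 5 and 6 against 5.28, 5.48 and 5.17 in wild-type replicates 1, 4 and 6. The labels give wild-type replicate 6 as male and the other 5 mice as female. The Y-linked Eif2s3y was high on 5 arrays (9.41 to 9.52) and Xist only on that of wild-type replicate 4, so 4 mice, among them all 3 DNMTs-Tg mice, did not match their labelled sex. The log2 difference between 3' and 5' Gapdh probe sets, which rises as RNA degrades, was 0.75, 0.53 and 0.71 in DNMTs-Tg and 0.50, 0.40 and 0.40 in wild-type arrays. All 10 cardiomyocyte markers were measured, each above the 40th percentile on every array.

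Of the 41 member genes, Grn and Ctsl rose in DNMTs-Tg hearts and 0 fell (limma, adjusted p under 0.05 over all genes). These 2 are 4.88% of the members, against 5.39% of all genes tested (2.24% higher and 3.15% lower), so the share called did not exceed the background. At unadjusted p under 0.05 there were 12 members (29.3%), all of them higher, against 26% of all genes in either direction. The members leaned upward all the same. Their differences were above 0 for 32 of 41 (78.0%), against 50.8% of all genes, and their median log2 difference was 0.19, against 0.01 over all genes. Every DNMTs-Tg array lay above every wild-type array for 14 members (34.1%) and below for 0, against 34.9% of all genes in either direction, 17.3% higher and 17.6% lower. The size of the differences was not unusual, with a median absolute log2 difference of 0.20 for members and 0.20 for all genes. Since the set was chosen with results of these arrays known, these counts are descriptions without a test.

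**Figure D1:**
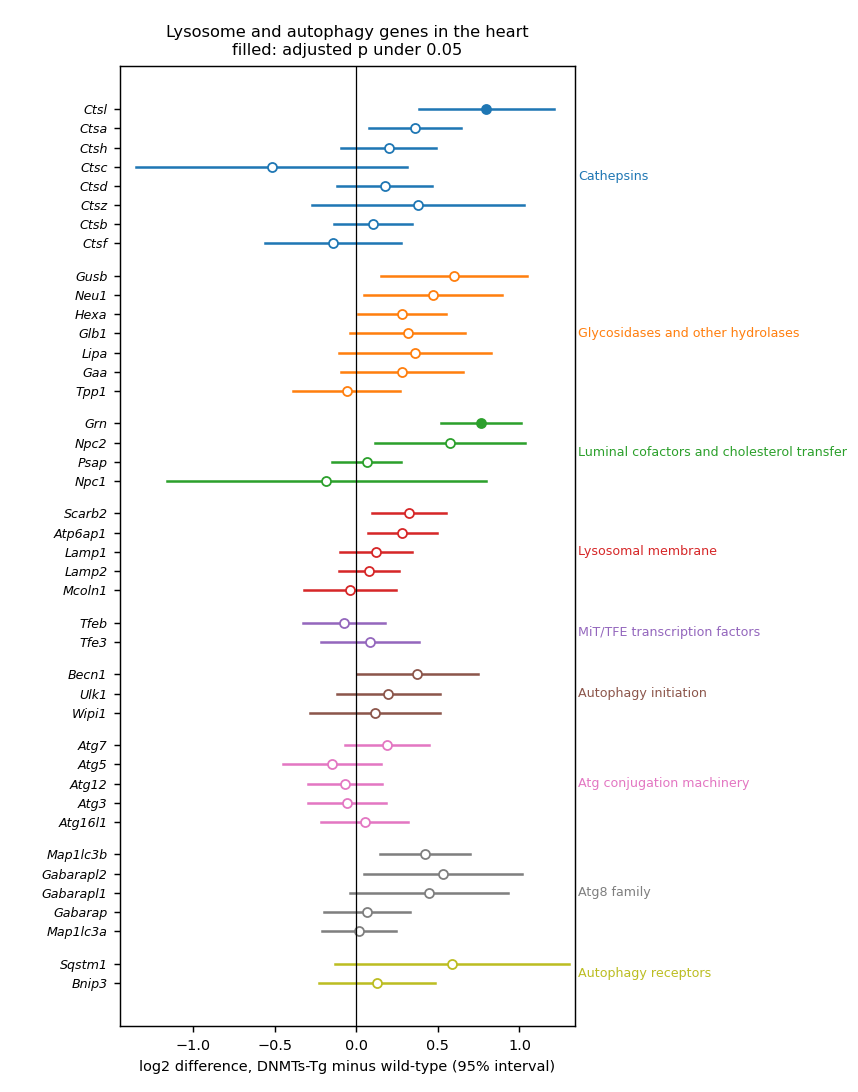
Log2 difference between DNMTs-Tg and wild-type hearts (horizontal axis) for each of the 41 measured genes, grouped by role, with the 95% interval from limma as a line. Grn and Ctsl are the filled points, and 32 of the 41 points lie to the right of 0.

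Grn encodes progranulin, a secreted and lysosomal glycoprotein that is cut into granulins inside the lysosome. The DNMTs-Tg hearts (replicates 1, 5 and 6) had log2 signals of 11.64, 11.41 and 11.36, and the wild-type hearts (replicates 1, 4 and 6) had 10.74, 10.63 and 10.75. All 3 DNMTs-Tg hearts were high and close to each other, and the groups did not overlap. The difference was 0.76 ± 0.11 (SE, n = 3 per group), a 1.70-fold rise (limma, adjusted p = 0.0127). The 3 kept probe sets of Grn gave nearly the same value, 0.76, 0.74 and 0.77, and all 3 passed when each of 27319 probe sets was tested on its own (limma, adjusted p = 0.0150, 0.0106 and 0.0272), where 4.13% of all probe sets passed. They were the only member probe sets that passed. The names of the first and second end in _x_at, which Affymetrix gives where probes may also bind other transcripts, and the third does not. Without DNMTs-Tg replicate 1 the difference was 0.68 (adjusted p = 0.00682) and without replicate 6 it was 0.82 (adjusted p = 0.0107). The call was lost without DNMTs-Tg replicate 5 (limma, adjusted p = 0.0574) and without any of the wild-type arrays, 1 (0.0709), 4 (0.0687) or 6 (0.0552), at differences of 0.73 to 0.80.

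Ctsl encodes cathepsin L, a cysteine endopeptidase that does much of the protein breakdown in lysosomes. Its log2 signals were 13.03, 12.57 and 12.30 in DNMTs-Tg and 11.88, 11.77 and 11.84 in wild-type hearts, in the same order of replicates. The wild-type hearts lay within a narrow band, and the DNMTs-Tg hearts were spread above it. The difference was 0.80 ± 0.18 (SE, n = 3 per group), a 1.74-fold rise (limma, adjusted p = 0.0495). The call sat at the threshold and was lost under quantile normalization (limma, adjusted p = 0.0582), with a common median (adjusted p = 0.0565) and without a filter (adjusted p = 0.0558). The differences in these settings were 0.74, 0.81 and 0.80. Without DNMTs-Tg replicate 1 the difference was 0.60 (adjusted p = 0.0170), and without DNMTs-Tg replicate 5 or any wild-type array adjusted p was 0.133 to 0.170.

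The other 7 cathepsins did not pass, and they differed in pattern. Ctsa, the carboxypeptidase that protects the sialidase and beta-galactosidase from degradation, had log2 signals of 10.52, 10.36 and 10.16 in DNMTs-Tg and 10.07, 9.98 and 9.91 in wild-type hearts. These groups did not overlap (difference 0.36 ± 0.12, limma, adjusted p = 0.124). Its second probe set, at 6.53 in both groups, differed by 0.00. Ctsd, the main aspartic protease, differed by 0.17 (95% interval -0.12 to 0.47) and Ctsb, an abundant cysteine protease, by 0.10 (-0.14 to 0.34). The 5 probe sets of Ctsb differed in sign. Ctsh, an aminopeptidase, stood at 0.20 by its brightest probe set and at 0.48 by the second, whose groups did not overlap (limma, adjusted p = 0.0867 among probe sets). Ctsf, another cysteine protease, had 8.20, 8.20 and 8.18 in DNMTs-Tg and 8.64, 7.96 and 8.42 in wild-type hearts, so that here the wild-type hearts were the variable group (difference -0.14).

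Ctsz and Ctsc were high in DNMTs-Tg replicate 1 compared with the rest of their group. Ctsz, a carboxypeptidase, had log2 signals of 10.14, 9.01 and 9.24 in DNMTs-Tg and 9.23, 9.03 and 8.99 in wild-type hearts. Only replicate 1 left the wild-type range upward by a clear margin, and the difference of 0.38 was 0.04 without that array. Ctsc, the dipeptidyl peptidase that activates granule proteases of immune cells, had 10.36, 8.93 and 9.22 in DNMTs-Tg and 9.90, 9.85 and 10.31 in wild-type hearts. Replicates 5 and 6 lay below every wild-type heart and replicate 1 above them. The difference of -0.52 ± 0.35 (SE) did not pass (limma, adjusted p = 0.387), but without DNMTs-Tg replicate 1 it was -0.95 and passed (adjusted p = 0.0227).

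The same array stood apart for markers of other cell types. The macrophage and myeloid list, 20 of 21 genes measured, had a mean log2 difference from the wild-type mean of 1.501 in DNMTs-Tg replicate 1 against 0.02 and 0.11 in replicates 5 and 6 and -0.10 to 0.12 in wild-type hearts. Summed over the 20 genes the linear signal was 23100, 8280 and 8470 in DNMTs-Tg and 8180 to 9510 in wild-type hearts. All 20 lay above the 40th percentile on every array, and 0 passed (limma, lowest adjusted p = 0.0509). Of the 20, 18 differed upward and 2 downward. The groups did not overlap for 5, all higher, against 17.3% of all genes. Among these 5 were the 2 with the smallest p. Ccr2 had log2 signals of 7.03, 5.68 and 5.96 in DNMTs-Tg and 4.74 to 4.84 in wild-type hearts. Lgals3 had 9.61, 7.79 and 7.20 against 5.66 to 6.57. Other markers of the list had a different pattern. C1qa, C1qb, C1qc, Tyrobp, Fcgr3, Lyz2 and Aif1 lay below every wild-type heart in replicates 5 and 6 and above them in replicate 1. C1qb, for example, had 10.49, 8.94 and 8.91 against 9.09 to 9.32. The 10 fibroblast markers stood at 1.14, 0.21 and 0.14 in DNMTs-Tg and -0.18 to 0.26 in wild-type hearts. The cardiomyocyte markers stood at -0.23, -0.03 and 0.01 in DNMTs-Tg and -0.02 to 0.02 in wild-type hearts. In whole tissue, more cells of a type and more RNA per cell cannot be told apart, and the part of these cells in the member differences was not tested.

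DNMTs-Tg replicate 1 held the highest of the 6 values for 25 of the 41 members (61.0%), against 30.2% of all genes. Wild-type replicate 6 held the lowest for 19 members (46.3%), against 16.6% of all genes. The median member stood 0.32, 0.16 and 0.09 above the wild-type mean in DNMTs-Tg replicates 1, 5 and 6, and at 0.05, 0.00 and -0.06 in wild-type replicates 1, 4 and 6. Without DNMTs-Tg replicate 1, 33 of 41 members were above 0 with a median of 0.12, and the groups did not overlap for 15 higher (36.6%) and 1 lower member, against 22.5% and 22.1% of all genes with that array left out. The number of member calls also rested on single arrays. Without DNMTs-Tg replicate 1 there were 3 rises (Ctsl, Grn and Scarb2) and 1 fall (Ctsc), where 7.83% of all genes were called. Without DNMTs-Tg replicate 6 there were 5 rises (Ctsa, Ctsl, Gabarapl2, Grn and Map1lc3b), where 11.8% of all genes were called. Without DNMTs-Tg replicate 5 or any of the 3 wild-type arrays there were 0, where 0.902% to 1.48% of all genes were called.

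**Figure D2:**
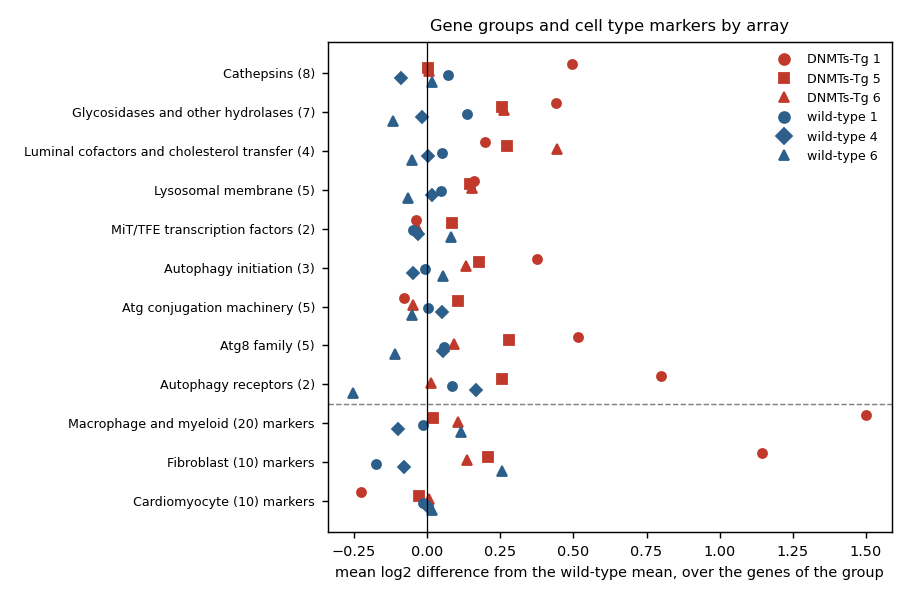
Mean log2 difference from the wild-type mean (horizontal axis) over the measured genes of each role (number in parentheses) and of 3 lists of cell type markers, with 1 symbol per array. DNMTs-Tg replicate 1 lies at 1.501 for macrophage markers and 0.50 for cathepsins, while the 3 DNMTs-Tg arrays lie together, at 0.15 to 0.16, for lysosomal membrane genes.

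Among the other acid hydrolases 0 of 7 passed and 3 had an unadjusted p under 0.05 (limma), against 26% of all genes. Of the 7, 6 lay above 0, against 50.8% of all genes, with a median of 0.32. Gusb, the beta-glucuronidase, had log2 signals of 9.06, 8.33 and 8.59 in DNMTs-Tg and 8.12, 7.92 and 8.15 in wild-type hearts. The groups did not overlap, and replicate 1 was again the highest (difference 0.60 ± 0.19, SE, adjusted p = 0.114). Its dimmer probe set differed by -0.03. Neu1, the lysosomal sialidase, had 7.09, 6.97 and 6.61 against 6.68, 6.37 and 6.21, where DNMTs-Tg replicate 6 lay below wild-type replicate 1 (difference 0.47, adjusted p = 0.161). Hexa, the alpha subunit of beta-hexosaminidase, had 10.75, 10.60 and 10.63 against 10.51, 10.45 and 10.19, a small difference without overlap (0.28, adjusted p = 0.183). Glb1, the beta-galactosidase, was also without overlap at 0.32, and here DNMTs-Tg replicate 6 was the highest heart, at 8.06. Lipa, the acid lipase that frees cholesterol and fatty acids, stood at 0.36 and Gaa, which digests glycogen, at 0.28, both with overlapping groups. Tpp1, a tripeptidyl peptidase, was the member of this role below 0, at -0.06 (95% interval -0.39 to 0.27).

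Of the luminal cofactors and cholesterol transfer proteins beside Grn, Npc2 was higher in every DNMTs-Tg heart and Npc1 was not. NPC2 picks up cholesterol in the lumen and hands it to NPC1, which carries it across the membrane. Npc2 had log2 signals of 11.51, 10.86 and 10.79 in DNMTs-Tg and 10.55, 10.52 and 10.37 in wild-type hearts (difference 0.58 ± 0.19, SE, limma, adjusted p = 0.126). All 3 of its kept probe sets were without overlap, at 0.58, 0.50 and 0.30. Without DNMTs-Tg replicate 1 the Npc2 difference was 0.35. Npc1 spread widely among DNMTs-Tg hearts, with 8.14, 9.12 and 10.004 against 9.30, 9.34 and 9.18 in wild-type hearts. Replicate 1 was the lowest of all 6 and replicate 6 the highest, and the SD was 0.93 in the DNMTs-Tg group and 0.08 in the wild-type group (n = 3 each). Its mean difference was -0.18 (95% interval -1.16 to 0.79). Psap, the precursor of the saposins that help hydrolases reach lipids, differed by 0.06 and lay between 12.80 and 13.02 on all arrays.

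**Figure D3:**
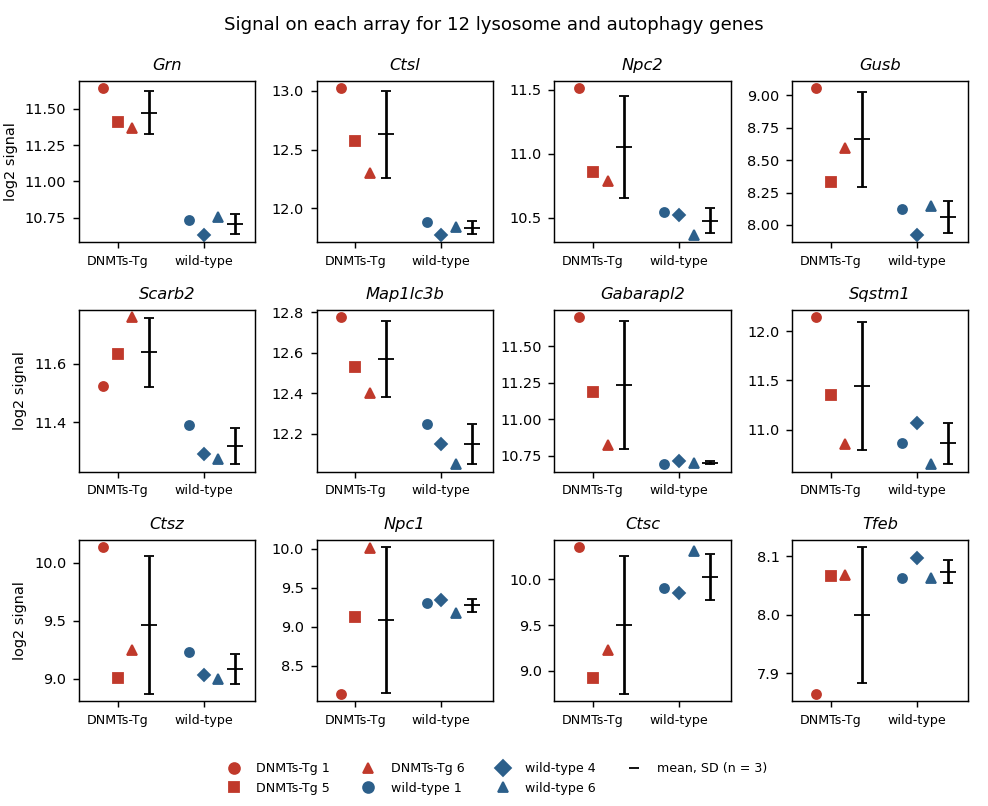
Log2 signal (vertical axes, each with its own range) on each of the 6 arrays for 12 genes, with the mean and SD of each group of 3 beside the points. The groups are apart for Grn, Ctsl, Npc2, Gusb, Scarb2, Map1lc3b and Gabarapl2, while Npc1 runs from 8.14 to 10.004 within the DNMTs-Tg hearts.

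Of the 5 genes in the lysosomal membrane role, which leaves out Npc1, 0 passed. An unadjusted p under 0.05 (limma) was found for 2, against 26% of all genes. The mean difference of the 5 was 0.16, 0.15 and 0.15 on the 3 DNMTs-Tg arrays, though single genes were less even. Scarb2, the receptor that carries glucocerebrosidase to lysosomes, had log2 signals of 11.52, 11.64 and 11.76 in DNMTs-Tg and 11.39, 11.29 and 11.27 in wild-type hearts. Here replicate 1, the array with the high macrophage markers, was the lowest of the DNMTs-Tg hearts. The difference of 0.32 ± 0.10 (SE) did not pass (limma, adjusted p = 0.0992) and passed without that array (0.38, adjusted p = 0.0383). The second probe set of Scarb2 gave 0.30, also without overlap. Atp6ap1, an accessory subunit of the proton pump that acidifies lysosomes, had 11.31, 11.21 and 11.18 against 11.03, 10.94 and 10.88, again without overlap (0.28 ± 0.09, adjusted p = 0.116). Lamp1, a major structural protein of the lysosomal membrane, differed by 0.12 (95% interval -0.10 to 0.34) with overlapping groups, and by 0.05 without DNMTs-Tg replicate 1. Lamp2, whose isoforms act in fusion and in chaperone-mediated autophagy, differed by 0.08 by its brightest probe set and by 0.23, 0.44 and 0.47 by 3 others, none of which passed. The probe set at 0.47 had 9.52, 8.82 and 8.58 in DNMTs-Tg and 8.45, 8.51 and 8.57 in wild-type hearts, so that replicate 1 stood far above the rest. Mcoln1, a calcium channel of the lysosome, stood at -0.04 (95% interval -0.32 to 0.24).

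The transcription factors of this programme did not differ detectably in RNA level. Tfeb had log2 signals of 7.87, 8.07 and 8.07 in DNMTs-Tg and 8.06, 8.10 and 8.06 in wild-type hearts (difference -0.07, 95% interval -0.33 to 0.18, limma, adjusted p = 0.694). Tfe3 had 7.68, 7.73 and 7.49 against 7.46, 7.46 and 7.73 (0.08, -0.22 to 0.38, adjusted p = 0.720). In both genes the groups overlapped. The activity of these factors is set largely by their location in the cell, which arrays do not measure.

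Promoter windows of 300 bases, from 250 before to 50 after the annotated start, were taken from RefSeq (GRCm38.p6) for 36 of the 44 genes, 41 windows in all, and searched on both strands for CACGTG, the E-box core, and for GTCACGTG, the longer form favoured by TFEB, whose matches all contain the first. CACGTG was found in 13 of the 41 windows (31.7%), against 9.50% of the windows of genes tested and 7.15% of all windows of the table. GTCACGTG was found in 8 windows (19.5%), against 3.75% and 2.25%. The 8 genes with GTCACGTG were Atg3, Atg7, Ctsa, Ctsd, Gla, Glb1, Lamp1 and Mcoln1. Of the 7 that were measured, 0 passed, and their median log2 difference was 0.17, against 0.28 for the 27 measured members with a window and no such match. Ctsl holds CACGTG alone, with its first base at position -236 from the start, and Grn neither. Atg12, Atg16l1, Becn1, Bnip3l, Ctsb, Ctsh, Map1lc3a and Npc1 had no entry. A match is a description of these letters and not evidence of binding. The 250 bases before the start are shown for the members called, Grn and Ctsl, and for 3 members with the longer motif that were not called, with the motifs in capitals.
Grn (chr11:102430257-102430506, + strand): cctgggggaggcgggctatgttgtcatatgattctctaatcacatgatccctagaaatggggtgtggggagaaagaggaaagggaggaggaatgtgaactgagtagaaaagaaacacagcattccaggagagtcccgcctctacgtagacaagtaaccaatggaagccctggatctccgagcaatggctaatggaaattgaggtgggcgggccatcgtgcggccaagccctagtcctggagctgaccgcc
Ctsl (chr13:64370521-64370770, - strand): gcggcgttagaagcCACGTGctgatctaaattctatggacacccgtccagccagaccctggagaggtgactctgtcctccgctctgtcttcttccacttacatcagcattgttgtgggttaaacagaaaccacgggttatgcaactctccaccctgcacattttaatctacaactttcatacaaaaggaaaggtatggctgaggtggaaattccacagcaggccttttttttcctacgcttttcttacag
Ctsd (chr7:142387828-142388077, - strand): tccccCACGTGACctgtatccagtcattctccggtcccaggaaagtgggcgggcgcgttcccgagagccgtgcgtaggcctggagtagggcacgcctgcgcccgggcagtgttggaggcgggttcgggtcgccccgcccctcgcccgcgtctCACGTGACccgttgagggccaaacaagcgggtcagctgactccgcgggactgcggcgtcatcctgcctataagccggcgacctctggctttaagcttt
Atg3 (chr16:45158579-45158828, + strand): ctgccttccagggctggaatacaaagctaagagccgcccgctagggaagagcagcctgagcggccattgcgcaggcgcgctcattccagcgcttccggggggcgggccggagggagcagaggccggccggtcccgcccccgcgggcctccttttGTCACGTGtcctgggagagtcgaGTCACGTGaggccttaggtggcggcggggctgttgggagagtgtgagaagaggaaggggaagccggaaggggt
Glb1 (chr9:114400828-114401077, + strand): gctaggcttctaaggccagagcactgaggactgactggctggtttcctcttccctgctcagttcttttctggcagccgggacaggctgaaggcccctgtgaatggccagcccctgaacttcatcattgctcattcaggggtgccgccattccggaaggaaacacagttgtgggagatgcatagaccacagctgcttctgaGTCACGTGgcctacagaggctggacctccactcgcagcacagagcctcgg
These sequences show that the members called do not carry the longer motif in this window, whereas Ctsd and Atg3 carry it at 2 places each and Glb1 at 1. Other forms of the E-box were not searched for, so a window without a match, such as that of Grn, may still hold one. Since added DNA methyltransferases act on CpG sites, their number was counted too. The windows of members held a median of 15 CpG, against 19 for genes tested and 7 for all windows, and the Grn and Ctsl windows held 11 and 10. DNA methylation was not analysed here.

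The genes that start autophagy all lay above 0 and none of the 3 passed. Becn1, a subunit of the lipid kinase complex that nucleates the membrane, had log2 signals of 10.83, 10.36 and 10.27 in DNMTs-Tg and 10.09, 10.05 and 10.19 in wild-type hearts. The groups did not overlap (difference 0.37 ± 0.16, SE, limma, adjusted p = 0.190), but 1 of its 3 kept probe sets differed by -0.11. Ulk1, the kinase that nutrient signals control, differed by 0.20 with 10.11, 10.28 and 10.59 against 10.16, 10.15 and 10.09, and here replicate 6 was highest. Wipi1, which binds the lipid made by the Becn1 complex, differed by 0.11 by its brightest probe set. All 6 kept probe sets of Wipi1 were above 0, up to 0.61, and 2 of them had groups without overlap.

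The conjugation machinery showed no shared direction. Of its 5 genes 2 lay above and 3 below 0, the median was -0.06, and 0 had an unadjusted p under 0.05 (limma). Atg7, the activating enzyme for both tag systems, had 6.97, 7.12 and 6.92 in DNMTs-Tg and 6.85, 6.85 and 6.75 in wild-type hearts, a difference of 0.19 without overlap (adjusted p = 0.317). Atg3, the enzyme that transfers Atg8 proteins to lipid, differed by -0.06, Atg12 by -0.07 and Atg16l1, the partner of the conjugate that Atg5 and Atg12 form, by 0.05. Atg5 had 8.45, 8.81 and 8.65 in DNMTs-Tg and 8.68, 8.86 and 8.82 in wild-type hearts, where replicate 1 was lowest and the groups overlapped (-0.15, adjusted p = 0.482). The 95% intervals of these 4 ran from -0.45 at the lowest, for Atg5, to 0.32 at the highest, for Atg16l1.

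The Atg8 family, whose proteins are attached to the autophagosome membrane, had all 5 members above 0 and a median of 0.42, but again 0 passed. Of the 5, 2 had groups without overlap, against 34.9% of all genes in either direction. An unadjusted p under 0.05 (limma) was found for 2, against 26% of all genes. Map1lc3b, the most used marker of autophagosomes, had log2 signals of 12.77, 12.53 and 12.40 in DNMTs-Tg and 12.25, 12.15 and 12.05 in wild-type hearts. Its difference was 0.42 ± 0.12 (SE, adjusted p = 0.0842), and its 3 kept probe sets were each without overlap, at 0.42, 0.33 and 0.21. Gabarapl2 had 11.70, 11.18 and 10.82 against 10.69, 10.71 and 10.70, where the wild-type hearts were nearly equal and DNMTs-Tg replicate 6 was close to them (0.53 ± 0.21, adjusted p = 0.162). Its second probe set differed by 0.95. Gabarapl1 had 10.51, 10.43 and 10.05 against 9.97, 10.20 and 9.49, with overlap (0.44, adjusted p = 0.221). Gabarap differed by 0.07 and Map1lc3a by 0.02. The 2 kept probe sets of Map1lc3a disagreed, the brighter, which carries the suffix for shared probes, at 0.02 and the other at -0.31. The latter had 11.77, 11.79 and 11.73 in DNMTs-Tg and 12.04, 11.996 and 12.18 in wild-type hearts and so lay lower in every DNMTs-Tg heart (limma, adjusted p = 0.0912 among probe sets).

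**Figure D4:**
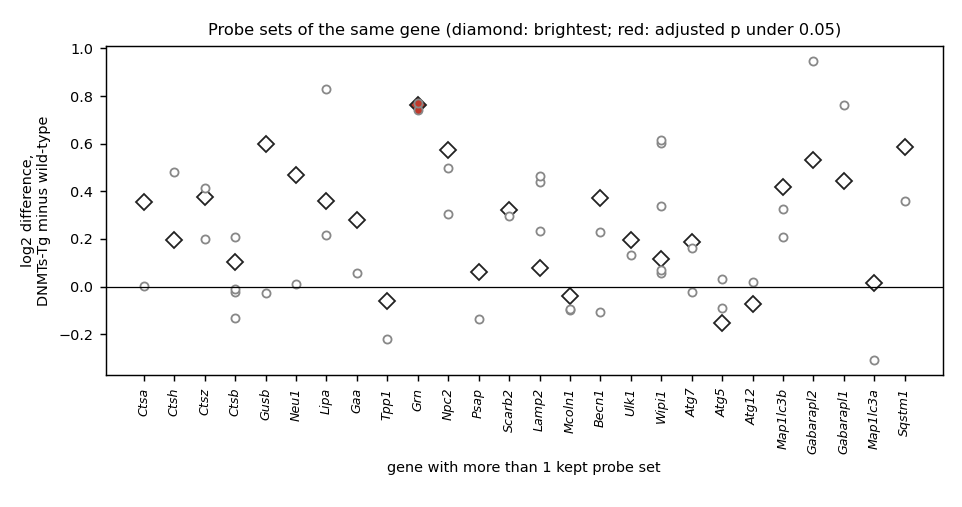
Log2 difference between DNMTs-Tg and wild-type hearts (vertical axis) for each kept probe set of the 26 genes with more than 1, with the brightest probe set as a diamond. The 3 probe sets of Grn are filled and lie together at 0.74 to 0.77, while those of Map1lc3a lie at 0.02 and -0.31.

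Across all probe sets of the members, 64 of the 85 kept were above 0 and 21 below. Groups did not overlap for 28 higher and 2 lower probe sets, the latter of Map1lc3a and Tpp1. Of all kept probe sets 32.5% had no overlap in either direction, a share that was not split by direction. Probe sets of the same gene are not independent, so these counts are descriptions. The kept probe sets of 8 of the 26 genes with more than 1 differed in sign, namely Ctsb, Gusb, Psap, Becn1, Atg7, Atg5, Atg12 and Map1lc3a.

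The cargo receptors varied with replicate 1. Sqstm1, the ubiquitin-binding receptor that is itself degraded by autophagy and induced by oxidative stress, had log2 signals of 12.14, 11.35 and 10.85 in DNMTs-Tg and 10.87, 11.07 and 10.65 in wild-type hearts. Replicate 1 was far above and replicate 6 within the wild-type range, so that the difference of 0.59 ± 0.31 (SE) did not pass (limma, adjusted p = 0.268) and was 0.24 without replicate 1. Bnip3, a mitophagy receptor induced by hypoxia, had 12.80, 12.49 and 12.51 in DNMTs-Tg and 12.64, 12.60 and 12.18 in wild-type hearts. The groups overlapped, and the difference was 0.12 (adjusted p = 0.634).

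Outside the set, 8 further lists of lysosome and autophagy genes held 137 measured genes, of which 2 rose and 5 fell (5.11%, against 5.39% of all genes). Of 24 other lysosomal hydrolases 15 lay above 0 and Ppt1, the palmitoyl-protein thioesterase, fell, from 9.73 to 9.09 in mean log2 signal (-0.63 ± 0.14, SE, limma, adjusted p = 0.0450). Of 19 other membrane proteins 11 lay above 0, with a median of 0.14, and 2 fell. Mfsd8, a chloride channel of late endosomes and lysosomes, fell by 0.67 (limma, adjusted p = 0.0239) and Laptm4a by 0.50 (adjusted p = 0.0467). Of 12 sorting genes 9 lay below 0, and Sort1, the sorting receptor sortilin, fell by 0.58 (adjusted p = 0.0315), with Igf2r, the large mannose 6-phosphate receptor, at -0.48 (adjusted p = 0.0780) and lower in every DNMTs-Tg heart. The kept probe sets of these genes were unequal, from -0.58 to -0.02 over the 3 of Sort1, -0.67 and -0.20 for the 2 of Mfsd8 and -0.63 and -0.76 for the 2 of Ppt1. Loss of Ppt1 and of Mfsd8 is known to cause neuronal ceroid lipofuscinosis, as is loss of Grn, which rose here.

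Of 29 other genes of the autophagy machinery 2 rose, Wdr45b, a relative of Wipi1, by 0.61 ± 0.10 (SE, limma, adjusted p = 0.0190) and Atg9a, the lipid scramblase of autophagic vesicles, by 0.49 ± 0.09 (adjusted p = 0.0320). Wdr45b had 10.49, 10.28 and 10.31 in DNMTs-Tg and 9.74, 9.73 and 9.77 in wild-type hearts, so that each group was tight and apart. Of 7 other mitophagy genes Fundc1, a receptor of the outer mitochondrial membrane, fell by 0.64 (adjusted p = 0.0493), with its 3 kept probe sets at -0.64 to -0.42. With each array left out in turn these 7 calls held in 1 fit (Ppt1 and Fundc1) or 2 fits (the other 5) of 6, and all 7 kept their direction. Of 16 subunits of the proton pump 0 passed, with a median of 0.16 and 6 at unadjusted p under 0.05 (limma), against 26% of all genes. The nearest was Atp6v1b2 at 0.63 (adjusted p = 0.0564), next Atp6v0e2 at -0.37 (adjusted p = 0.106). Of 25 genes of nutrient sensing around mTORC1 0 passed, with 6 at unadjusted p under 0.05 (limma), against the same 26% of all genes. Prkaa1, a catalytic subunit of the energy-sensing kinase AMPK, stood at 0.51 (adjusted p = 0.0777), and Lamtor2, part of the scaffold that docks mTORC1 on the lysosome, at -0.45 (adjusted p = 0.0901). Of 5 other transcription factors of these genes 0 passed, with 1 at unadjusted p under 0.05, Mitf, a relative of Tfeb, at -0.65 (adjusted p = 0.167), which was lower in every DNMTs-Tg heart. Foxo1 stood at -0.26 (adjusted p = 0.282).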

How the data were processed

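Hearts of 3 DNMTs-Tg and 3 wild-type mice were measured on Affymetrix GeneChip arrays, 1 per mouse. The authors deposited 1 log2 signal per probe set and array. How background and scale were treated, and with which software: not given in the sources used here. Levels near the 40th percentile therefore have no known relation to background. Values were used as deposited. The annotation paired 34945 of 45101 probe sets with a single symbol and 932 with more than 1, while 9160 were unnamed and 64 were controls. Symbols were updated through gene identifiers to GRCm38.p6. For a gene with several, the brightest probe set on average stood for it. All tests were 2-sided and came from lmFit and trended eBayes of limma 3.58.1 (R 4.3.3), with Benjamini-Hochberg adjustment over all 13634 genes or 27319 probe sets and a threshold of 0.05. The steps were tested on data simulated with the same spread in both groups, where 74 of 100 genes with a true 2-fold change were called. The simulation did not cover unequal spread or smaller changes. P-values set the group difference against the spread between these mice, which the model takes as equal in both groups. The SD was larger in DNMTs-Tg than in wild-type hearts for 71.6% of all genes (median 0.19 against 0.113). This unequal spread and the 3 arrays per group limit precision.

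Every member was described. Values on each array were given for members past the threshold, for the 12 with the smallest p and for the 2 with the smallest p in each role, and for others whose arrays differed within a group, chosen after their values were seen. From other lists of lysosome and autophagy genes up to 4 genes past the threshold were named, otherwise the 2 with the smallest p. Igf2r was added after its values were seen. The same rule was used for the macrophage and endothelial markers, with Ctss and Cd68 added as lysosome genes. C1qa, C1qb, C1qc, Tyrobp, Fcgr3, Lyz2 and Aif1 were added after their values were seen. For the other marker lists no gene was named. Members, lists and tests were chosen with earlier results of these data known. The alternatives were other normalizations, filters, variance models, thresholds, array weights, the label number as a block and leaving out each array.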

Additional observations from a re-analysis of the deposited data

How the results depend on the processing

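Of the member results, 2 rises fell to 1, Grn, under quantile normalization, a common median, no filter, a filter asked of all 6 arrays, averaging of probe sets, and eBayes without a trend or robust. With adjusted p of 0.1 there were 4 rises and 8 probe sets called (3 in the main setting), and 768 of all genes rose and 887 fell. With array weights, whose fit stopped before it converged and which ran from 0.203 for DNMTs-Tg replicate 1 to 5.63 for replicate 5, 14 members rose, 1 fell and 28 probe sets passed, while 2328 of all genes rose and 2494 fell. With the label number as a replicate block, 0 members and 0 member probe sets passed and 1 of all genes rose and 0 fell. Numbers 1 and 6 are shared by the groups, but deviations from the group means correlated at -0.05 and -0.08 over genes for same-numbered arrays and at -0.07 to 0.11 for the others, so the numbers are not taken as pairs. With each array left out in turn, 0 to 5 members rose, 0 to 1 fell and 0 to 6 probe sets passed, and 44 to 815 of all genes rose and 79 to 789 fell. The member median was 0.12 to 0.23 in every setting that gives it.

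Of the members that changed sign, none passed in either direction. Most were near 0, but Ctsz moved from 0.38 to -0.061 with array weights and Npc1 from -0.18 to 0.29 without DNMTs-Tg replicate 1. With array weights Mcoln1 stood at 0.034, Atg3 at 0.015, Atg5 at 0.027, Map1lc3a at -0.11 and Bnip3 at -0.018. Under quantile normalization Lamp2 stood at -0.021, Atg16l1 at -0.006 and Map1lc3a at -0.015, with the mean of probe sets Psap at -0.037 and Map1lc3a at -0.15, and with the replicate block Tfe3 at -0.01. With an array left out the ranges that crossed 0 were -0.33 to 0.009 for Ctsf, -0.165 to 0.044 for Tpp1, -0.64 to 0.29 for Npc1, -0.106 to 0.039 for Mcoln1, -0.04 to 0.28 for Wipi1, -0.11 to 0.002 for Atg3, -0.023 to 0.122 for Atg16l1, -0.048 to 0.089 for Map1lc3a and -0.021 to 0.206 for Bnip3. The cause was not tested.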

Other observations

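Among the other marker lists, Vwf, the endothelial von Willebrand factor that is stored in lysosome-related organelles, rose from 8.54 to 9.93 in mean log2 signal (1.39 ± 0.21, SE, n = 3 per group, limma, adjusted p = 0.0177). It had 10.20, 9.75 and 9.85 in DNMTs-Tg and 8.80, 8.72 and 8.10 in wild-type hearts. The call held in 3 of 6 fits with an array left out, and the difference was 1.174 to 1.525 in these fits. It was the member of the 8 endothelial markers that passed. Their median difference was 0.02, and they stood at 0.04, 0.12 and 0.24 in DNMTs-Tg replicates 1, 5 and 6. Vwf itself lay above every wild-type heart in replicates 1, 5 and 6. The macrophage markers stood at 1.501, 0.02 and 0.11 in these replicates and at -0.10 to 0.12 in wild-type hearts. The part of macrophages in the rise of Vwf was not tested. Ctss and Cd68, which belong both to the lysosome and to the macrophage list, did not pass. Ctss had 12.18, 10.50 and 10.37 in DNMTs-Tg and 9.63, 10.14 and 9.98 in wild-type hearts (1.10 ± 0.46, adjusted p = 0.185).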
